A study of Mus musculus with 25 samples.

Results

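The sinoatrial node (SAN), the pacemaker region of the heart, was compared with the neighbouring right atrium (RA) in mouse embryos at embryonic day 14.5 (E14.5). The comparison rests on 6 of the 25 libraries of the series, 3 of SAN and 3 of RA, taken as every library that the labels place in these tissues at this stage. All 6 came from Hcn4-GFP mice on a mixed background, with no other allele and no treatment given in the labels. The tissue was cut from 8 µm frozen sections by laser capture after being outlined by eye, and staining for Hcn4 was used afterwards to check the dissection. Levels of Hcn4 are therefore given as a check of the capture. RNA was amplified with the Ovation V2 kit, which does not keep strand, so reads of overlapping or antisense genes cannot be told apart, and close paralogs may share reads. The labels do not tie libraries to embryos, so p-values measure the spread between libraries. A further 12 libraries of the same genotype, 3 of SAN and 3 of RA at postnatal day 4 (P4) and at postnatal day 14 (P14), entered the same fit and were used to ask whether the embryonic differences were also seen after birth.

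The SAN starts each heartbeat. Its cells depolarise spontaneously through hyperpolarisation-activated (HCN) channels, calcium channels and calcium release from the sarcoplasmic reticulum, and are weakly coupled to each other. In the embryo the node forms from Tbx18-expressing precursors of the sinus venosus, and the transcription factors Isl1, Shox2 and Tbx3 keep it apart from the Nkx2-5-driven programme of the working atrium, which is marked by natriuretic peptides and by the connexins of fast conduction. At E14.5 the node is a recognisable structure at the junction of the superior caval vein and the right atrium, covered by epicardium on its outer side.

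Levels are given as CPM, the deposited scaled read counts divided by a constant shared by all libraries. Library totals were therefore not equal, at 1100626 to 1217354 CPM in these 6. Values for 3 libraries are in the order of replicates 1, 2 and 3. Recovered depth was 11343618 to 17997497 reads in SAN and 6608420 to 12357437 in RA, so that 1 read was worth 0.0616 to 0.184 CPM, and 17859 to 19105 genes were detected per library. A count of 0 allows up to 3 reads, or 0.185 to 0.553 CPM in these libraries, for counting error only. Differences are SAN minus RA on the log2(CPM + 1) scale with their standard error (SE) from limma, and they understate the change of genes at low levels. Genes count as called where the p-value, adjusted after Benjamini and Hochberg across the 17568 genes tested, fell under 0.05. Correlations of library profiles were 0.943 to 0.970 within a tissue and 0.902 to 0.932 between tissues.

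One SAN library stood apart in ventricular genes. Myl2, the regulatory myosin light chain of ventricular muscle, was at 829, 1.6 and 14.14 CPM in SAN and 4.96, 11.6 and 0.178 CPM in RA. Replicate 1 of SAN also had the highest level of Myl3, at 422, 48.7 and 42.2 CPM in SAN against 58.3, 25.2 and 50.8 CPM in RA, and of the ventricular transcription factor genes Irx4 at 10.9 CPM and Hand1 at 10.8 CPM. The summed level of the 8 ventricle markers was 4449, 2637 and 2423 CPM in SAN and 1441, 1825 and 1484 CPM in RA. Of the 6 members tested, 1 was called higher in SAN (Myh7), and it was not called without SAN replicate 1. Without this library, 25 of the 120 named genes called at E14.5 were no longer called. Such losses were not particular to it, at 22 and 9 without SAN replicates 2 and 3. Without RA replicates 1, 2 and 3 they were 21, 20 and 16.

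Of the 17568 genes tested, 936 were called (5.33%), of which 393 were higher (2.24%) and 543 lower (3.09%) in SAN. The median difference of all genes tested was −0.07. A difference of at least 4-fold on this scale was seen in 168 of the higher and 231 of the lower genes, and one of at least 16-fold in 28 and 3. The 3 SAN and 3 RA libraries did not overlap for 392 of the 393 higher and 540 of the 543 lower genes, while 26.6% of all genes tested had groups that did not overlap. The split of the calls depended on the test, since edgeR on the recovered reads called 353 higher and 304 lower, or 53.7% higher against 42.0% by limma. The total fell to 594 without SAN replicate 1, to 593 without SAN replicate 2 and to 600 without RA replicate 2.

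**Figure D1:**
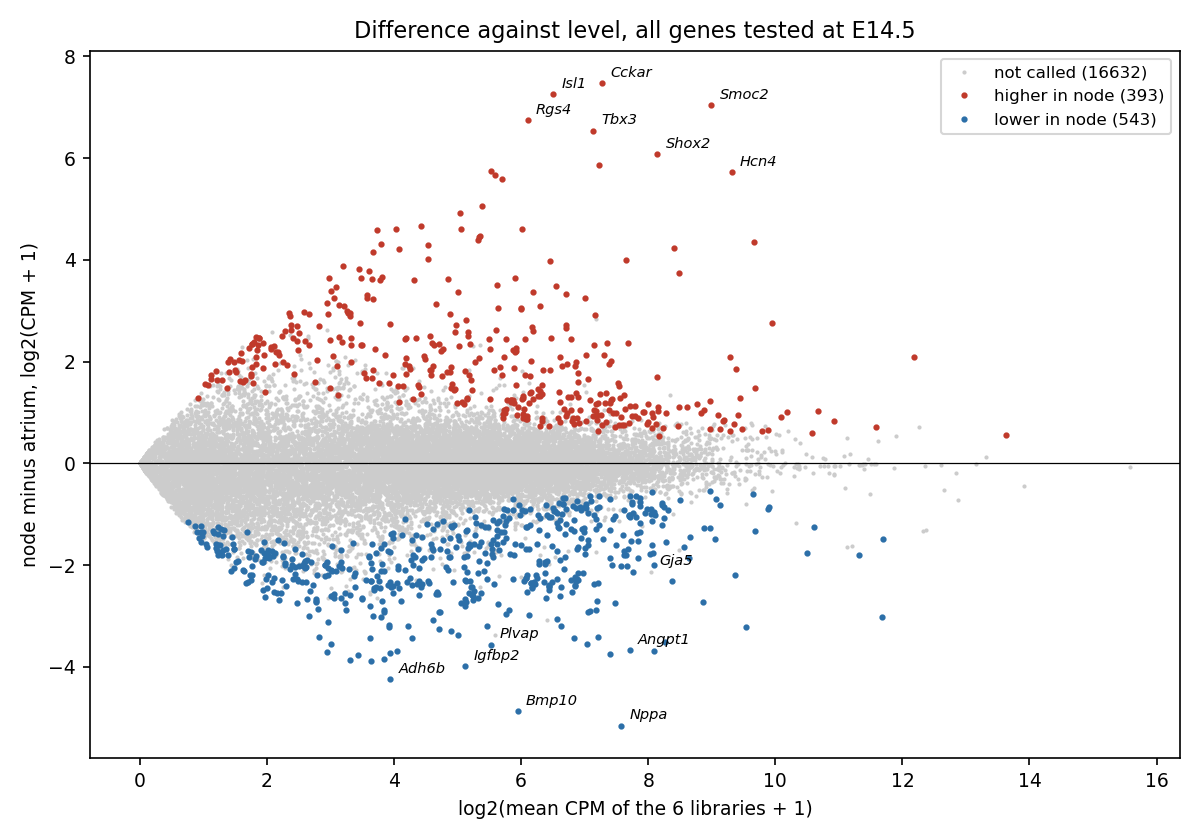
Each point is 1 of the 17568 genes tested at E14.5, with the log2 of its mean CPM over the 6 libraries plus 1 on the x axis and its SAN minus RA difference in log2(CPM + 1) on the y axis. The 393 genes called higher in SAN (red) reach 7.48 for Cckar, while the 543 called lower (blue) reach −5.16 for Nppa.

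Genes of the transcription factors that specify the node were higher in SAN, all 5 of the 5 listed. This list, like the others, was chosen with earlier results of these data known, so such counts are not independent of them. Counts of any list stand beside 2.24% higher and 3.09% lower over all genes tested. Lists with only 1 or 2 calls in a direction hold too few to be set apart from these shares. Isl1, a LIM homeodomain factor, was at 165, 246 and 125 CPM in SAN and 0, 0 and 0.445 CPM in RA. Its difference was 7.26 ± 0.58 (adjusted p = 4.3e-08). Isl1 reads were thus close to absent from the atrial libraries and present in each nodal one.

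Shox2, a homeobox factor that represses Nkx2-5 in the node, was at 507, 644 and 517 CPM in SAN and 8.35, 4.61 and 9.35 CPM in RA. It was higher in SAN by 6.09 ± 0.47 (adjusted p = 2.33e-08). Tbx3, a T-box repressor of the working atrial programme, was at 289, 324 and 215 CPM in SAN and 1.8, 1.66 and 2.4 CPM in RA, a difference of 6.54 ± 0.34 (adjusted p = 4.63e-11). For both genes every nodal library lay far above every atrial one.

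Tbx18, the T-box gene of sinus venosus precursors, was at 289.8, 282 and 255 CPM in SAN and 95.9, 87.7 and 103 CPM in RA. It was higher in SAN by 1.52 ± 0.24 (adjusted p = 0.000294), a smaller difference over a clear level in RA. Tbx5, a T-box activator used throughout the atria, was at 519, 585 and 696 CPM in SAN and 265, 428 and 237 CPM in RA, with a difference of 0.99 ± 0.24 (adjusted p = 0.0155). The groups of Tbx5 did not overlap, but its call was lost without SAN replicate 2 or 3 or RA replicate 1 or 3 (adjusted p up to 0.0902).

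Among 28 other cardiac transcription factor genes tested, 1 was higher in SAN and 5 were lower, with a median of −0.14. Prrx1, a homeobox factor of mesenchyme, was the higher gene, at 68.3, 97.5 and 106 CPM in SAN and 15.7, 15.1 and 15.8 CPM in RA (2.45 ± 0.27, adjusted p = 4.23e-06). Irx6, an Iroquois homeobox gene, was at 1.45, 0 and 0 CPM in SAN and 6.65, 14.18 and 9.8 CPM in RA, a difference of −3.001 ± 0.39 (adjusted p = 3.11e-05). SAN replicates 2 and 3 held no reads of Irx6.

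Irx5, of the same family, was at 7.74, 0.247 and 1.1 CPM in SAN and 25.9, 29.3 and 20 CPM in RA (−3.18 ± 0.59, adjusted p = 0.00164). Sall1, a zinc finger factor, was at 17.6, 1.66 and 9.23 CPM in SAN and 72.5, 109 and 47.7 CPM in RA (−3.20 ± 0.62, adjusted p = 0.00232). Nr2f2, which encodes the atrial identity factor COUP-TFII, was at 66.5, 57.4 and 62.3 CPM in SAN and 134, 216 and 122 CPM in RA (−1.28 ± 0.28, adjusted p = 0.00653), and its call was lost without RA replicate 2 (adjusted p = 0.0623). These 3 genes were lower in every nodal library than in any atrial one. edgeR did not call Irx5 (adjusted p = 0.139) or Irx6 (adjusted p = 0.183), and DESeq2 did not call Irx6 (adjusted p = 0.597).

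Of 12 further node genes, also chosen with earlier results of these data known, 9 were higher in SAN and 0 were lower, with a median of 2.27. Hcn4, the main pacemaker channel and the stain used as the check of capture, was at 1245, 1351 and 1143 CPM in SAN and 14.3, 31.1 and 25.5 CPM in RA. Smoc2, a matricellular calcium-binding protein, was at 1026, 1192 and 811 CPM in SAN and 4.29, 7.37 and 9 CPM in RA, a difference of 7.03 ± 0.45 (adjusted p = 1.16e-09). Vsnl1, the neuronal calcium sensor visinin-like 1, was at 1606, 1830.4 and 1214 CPM in SAN and 98.1, 69.1 and 59.9 CPM in RA (4.35 ± 0.22, adjusted p = 4.63e-11). Each of the 3 genes had a nodal level many times that of RA in every library.

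Igfbp5, a secreted binding protein of insulin-like growth factors, was at 7470.2, 8744 and 6267 CPM in SAN and 1935, 2234 and 1231 CPM in RA (2.09 ± 0.23, adjusted p = 2.81e-06). Rgs6, which shortens muscarinic signalling in pacemaker cells, was at 111, 109 and 111 CPM in SAN and 24.5, 24.3 and 12.4 CPM in RA (2.44 ± 0.30, adjusted p = 1.68e-05). Gnao1, the G protein subunit Gαo, was at 332, 443 and 374 CPM in SAN and 172, 194 and 190.3 CPM in RA (1.03 ± 0.17, adjusted p = 0.000545). The groups of these genes did not overlap. Ntm, the adhesion molecule neurotrimin, was at 147, 107 and 102 CPM in SAN and 50.4, 41.4 and 29.5 CPM in RA (1.54 ± 0.36, adjusted p = 0.00942), and it was not called without SAN replicate 1 or RA replicate 3 (adjusted p up to 0.0654).

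The other 3 node markers were not called at this stage. Cntn2, an adhesion molecule used as a marker of the mature conduction system, was at 0.362, 1.05 and 0.401 CPM in SAN and 1.13, 0.553 and 0.535 CPM in RA, a low level in every library. Cpne5, a copine, was at 33, 46.7 and 110.3 CPM in SAN and 48.2, 109 and 34.5 CPM in RA, and its groups overlapped (−0.03 ± 0.46, adjusted p = 0.992). Dpp10, an accessory subunit of A-type potassium channels, was at 0, 1.79 and 9.83 CPM in SAN and 0.338, 0 and 0 CPM in RA, and most of its signal came from SAN replicate 3.

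Channels of the pacemaker current and of calcium entry were higher in SAN in 5 of 14 genes tested and lower in 0, with a median of 0.73. They included Hcn4 and 3 calcium channel subunits. Cacna1d, the L-type Cav1.3 channel that opens at low voltage, was at 161, 173 and 199 CPM in SAN and 68.5, 62.3 and 23.4 CPM in RA (1.91 ± 0.30, adjusted p = 0.000285). Cacna2d2, an auxiliary calcium channel subunit, was at 1608, 1843 and 1674 CPM in SAN and 298, 314 and 169 CPM in RA (2.76 ± 0.29, adjusted p = 2.47e-06). Both were higher in every nodal library.

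Cacna1g, the T-type Cav3.1 channel, was at 38.7, 36.5 and 15.4 CPM in SAN and 8.35, 14.18 and 6.77 CPM in RA (1.49 ± 0.42, adjusted p = 0.0383). The lowest nodal library was close to the highest atrial one, and the call was lost without SAN replicate 1 or 2 or RA replicate 1 or 3 (adjusted p up to 0.188). Cacna1h, the other cardiac T-type channel, was at 214, 207 and 209 CPM in SAN and 88.3, 149 and 77.5 CPM in RA and was not called (1.05 ± 0.67, adjusted p = 0.498). Its groups did not overlap, while its SE rests on the spread in all 18 libraries of the fit. The missing call therefore does not show equal levels. Cacna1c, the L-type Cav1.2 channel of working muscle, overlapped between tissues at 167, 181 and 209.8 CPM in SAN and 279, 401 and 172 CPM in RA. Hcn3 was at most 1.97 CPM in any of the 6 libraries, and Hcn2 did not reach the level for testing.

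**Figure D2:**
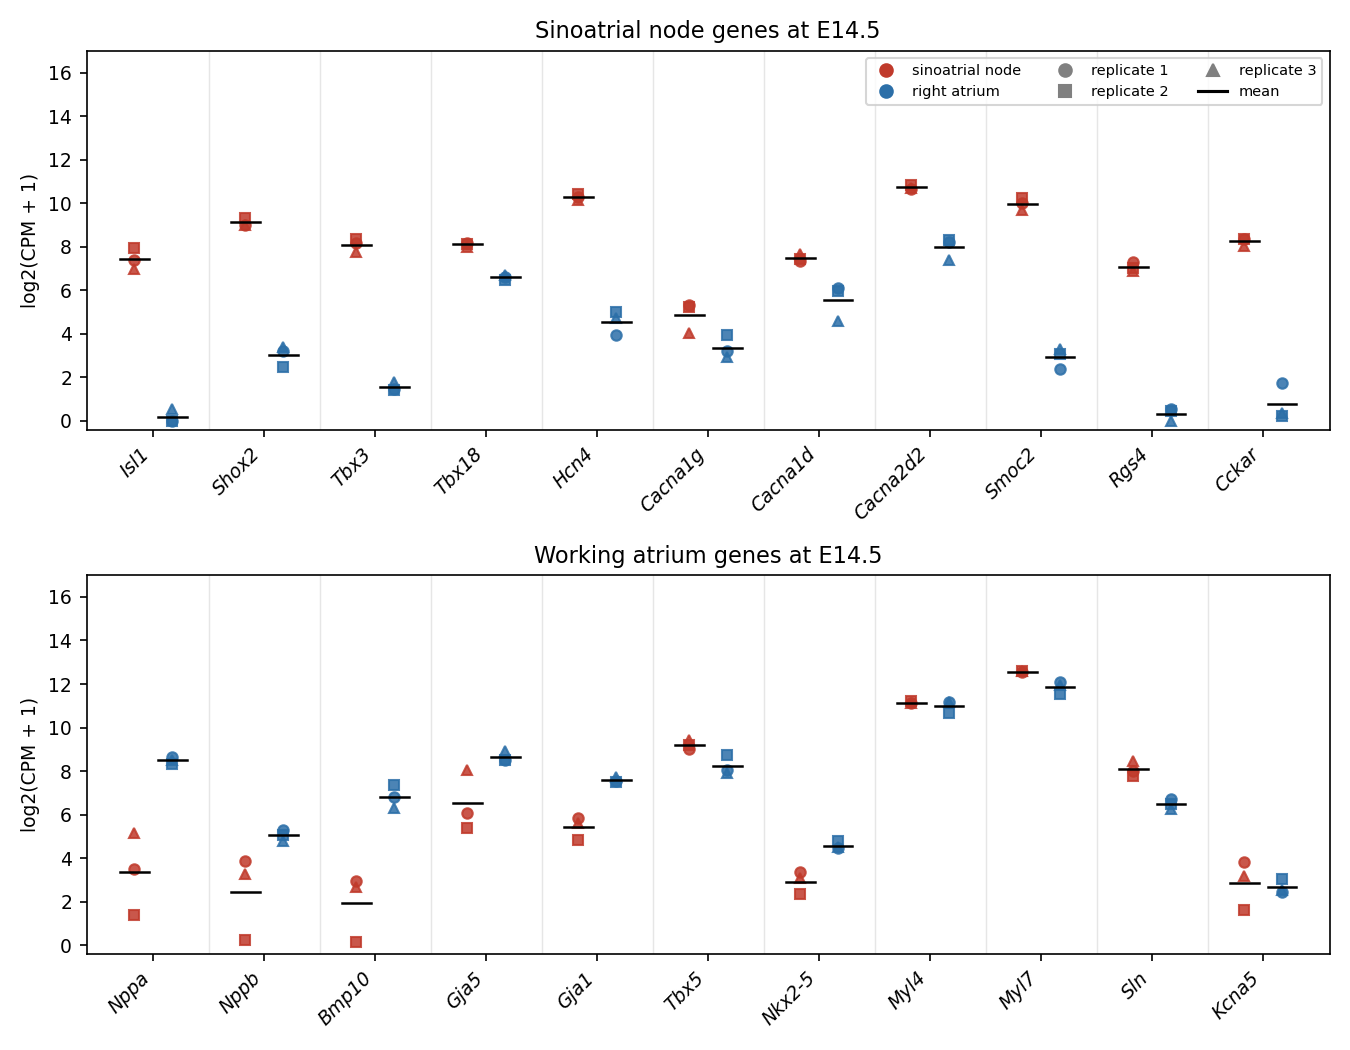
Points are single libraries at E14.5 (red, SAN; blue, RA; circle, square and triangle for replicates 1, 2 and 3), bars are group means, and the y axis is log2(CPM + 1) for the genes on the x axis. Groups separate fully for the 11 node genes of the upper panel, while Myl4 and Kcna5 of the lower panel overlap between the tissues. The 11 were picked among genes called higher in SAN, so their separation is no test. The node markers Cntn2, Cpne5 and Dpp10, which were not called, are not shown.

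Genes of the working atrium split. Of 15 tested, 5 were lower in SAN and 2 were higher, with a median of −0.39. Nppa, atrial natriuretic peptide, was at 10.4, 1.6 and 34.4 CPM in SAN and 406, 320.3 and 365 CPM in RA, a difference of −5.16 ± 0.59 (adjusted p = 5.98e-06). The atrial libraries were alike and the nodal ones spread over more than an order of magnitude, with replicate 3 highest. Bmp10, a BMP ligand made by atrial muscle, was at 6.87, 0.123 and 5.42 CPM in SAN and 112, 162 and 77.4 CPM in RA (−4.88 ± 0.50, adjusted p = 1.37e-06).

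Nppb, brain natriuretic peptide, was at 13.6, 0.185 and 8.73 CPM in SAN and 38, 33 and 26.6 CPM in RA (−2.59 ± 0.68, adjusted p = 0.0234). Its call was lost without SAN replicate 2 or RA replicate 1, 2 or 3 (adjusted p up to 0.182) and was not made by edgeR (adjusted p = 0.175) or DESeq2 (adjusted p = 0.36). SAN replicate 2 was the lowest nodal library for Nppa, Nppb and Bmp10. Pam, the enzyme that amidates peptides in atrial granules, was at 801, 694 and 1281 CPM in SAN and 1938, 3079 and 1621 CPM in RA (−1.25 ± 0.21, adjusted p = 0.000763), with no overlap.

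Gja1 (connexin 43) was at 56.4, 28.1 and 48 CPM in SAN and 188, 179 and 212 CPM in RA (−2.16 ± 0.33, adjusted p = 0.000203) and was the 1 connexin called among 8 tested, whose median was 0.14. Gja5 (connexin 40) was at 67.6, 40.8 and 267 CPM in SAN and 363, 359.8 and 487 CPM in RA and was not called (−2.13 ± 0.63, adjusted p = 0.0502), with SAN replicate 3 far above the other nodal libraries. edgeR and DESeq2 did not call Gja5 (adjusted p = 0.175 and 0.191), while limma with a replicate block did (adjusted p = 0.0228). Gjc1 (connexin 45), the low-conductance connexin of the node, was at 77.6, 116 and 64.5 CPM in SAN and 49.6, 47.7 and 48 CPM in RA and was not called (0.77 ± 0.27, adjusted p = 0.121). The groups of all 3 genes were separate.

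Nkx2-5, the homeobox factor of working myocardium, was at 9.25, 4.13 and 7.42 CPM in SAN and 21, 26.3 and 21.6 CPM in RA, without overlap, but was not called (−1.64 ± 0.53, adjusted p = 0.0781). Kcnj3, which forms the atrial acetylcholine-gated potassium channel, overlapped between the tissues, at 47.6, 72.5 and 101 CPM in SAN and 82.2, 124 and 61 CPM in RA.

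The 2 atrial genes called higher in SAN were Sln and Kcnj5. Sln, sarcolipin, an atrial inhibitor of the calcium pump of the sarcoplasmic reticulum, was at 256, 216 and 353 CPM in SAN and 106, 88.6 and 75.9 CPM in RA (1.58 ± 0.29, adjusted p = 0.00142). Kcnj5, the partner of Kcnj3 in the acetylcholine-activated channel, was at 286, 488 and 393 CPM in SAN and 192, 173 and 167 CPM in RA (1.10 ± 0.22, adjusted p = 0.0032). Both were higher in every nodal library. The atrial myosin genes Myl4, Myl7 and Myh6 were not called, and Myl7 was at 5921, 6258 and 6119 CPM in SAN and 4301, 3009.7 and 3969 CPM in RA (0.71 ± 0.24, adjusted p = 0.0989).

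Promoters of the called node and atrial genes and of the genes with the largest differences were read from RefSeq (GRCm38.p6, 250 bases before to 50 after each start) and searched on both strands for 4 motifs. The T-box motif was GGTGTGA, the NKX2-5 motif was TAAAGTG with any base allowed at its position 2, the ISL1 motif was CTAATG and the GATA motif was AGATAA, none of which overlaps another in the windows printed. An entry was found for 18 of 27 higher genes and for 11 of 18 lower genes. The windows below are those of the called atrial genes and node factors that held a match, with each match in capitals and positions counted from the start. Matches cover the first bases of Nppa (T-box at −250 and NKX2-5 at −241), and GATA letters stand at −219 and −33 in Bmp10, at −84 in Nppb, at −135 in Gja1 and at 11 in Isl1, while Tbx18 has ISL1 letters at −25 and NKX2-5 letters at 11.
Nppa, chr4:148000472-148000771 (+ strand): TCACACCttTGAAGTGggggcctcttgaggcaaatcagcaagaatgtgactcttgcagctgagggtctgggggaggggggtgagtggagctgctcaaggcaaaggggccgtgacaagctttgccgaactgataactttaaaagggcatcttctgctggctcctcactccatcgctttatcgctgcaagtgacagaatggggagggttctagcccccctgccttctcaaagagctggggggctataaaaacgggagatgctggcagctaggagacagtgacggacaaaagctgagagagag
Nppb, chr4:147985650-147985949 (+ strand): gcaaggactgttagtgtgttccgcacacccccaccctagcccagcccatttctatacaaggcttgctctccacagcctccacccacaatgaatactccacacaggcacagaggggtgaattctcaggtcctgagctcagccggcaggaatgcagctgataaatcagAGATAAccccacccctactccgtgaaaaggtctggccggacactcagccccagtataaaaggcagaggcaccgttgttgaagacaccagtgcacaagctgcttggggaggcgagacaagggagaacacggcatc
Bmp10, chr6:87428744-87429043 (+ strand): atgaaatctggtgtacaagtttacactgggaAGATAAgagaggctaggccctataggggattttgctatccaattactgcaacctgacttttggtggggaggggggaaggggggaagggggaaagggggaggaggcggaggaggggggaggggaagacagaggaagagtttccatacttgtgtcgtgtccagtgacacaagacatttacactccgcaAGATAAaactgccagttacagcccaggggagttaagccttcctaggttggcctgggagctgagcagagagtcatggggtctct
Gja1, chr10:56377050-56377349 (+ strand): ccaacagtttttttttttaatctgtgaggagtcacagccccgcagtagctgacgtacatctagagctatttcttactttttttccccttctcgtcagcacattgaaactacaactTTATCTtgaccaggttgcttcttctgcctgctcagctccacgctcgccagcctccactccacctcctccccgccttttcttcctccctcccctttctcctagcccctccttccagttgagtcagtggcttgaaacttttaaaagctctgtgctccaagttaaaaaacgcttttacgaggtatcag
Isl1, chr13:116309639-116309938 (- strand): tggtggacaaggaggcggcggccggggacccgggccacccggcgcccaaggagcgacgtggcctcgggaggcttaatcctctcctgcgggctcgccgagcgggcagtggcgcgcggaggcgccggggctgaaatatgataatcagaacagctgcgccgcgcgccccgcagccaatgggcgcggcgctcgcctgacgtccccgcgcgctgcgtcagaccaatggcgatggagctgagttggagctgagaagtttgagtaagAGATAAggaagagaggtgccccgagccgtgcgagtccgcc
Tbx18, chr9:87731211-87731510 (- strand): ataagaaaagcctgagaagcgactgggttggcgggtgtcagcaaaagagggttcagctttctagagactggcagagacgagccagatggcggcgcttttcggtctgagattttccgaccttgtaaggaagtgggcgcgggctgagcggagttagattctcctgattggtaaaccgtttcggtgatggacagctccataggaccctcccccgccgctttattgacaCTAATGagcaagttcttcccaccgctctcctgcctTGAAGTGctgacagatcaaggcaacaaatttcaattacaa
Over the lower genes, which had 14 windows since some genes have 2 starts, GATA letters were found in 5 windows, and T-box and NKX2-5 letters in 1 each. Over the higher genes, GATA and ISL1 letters were each found in 1 of 21 windows, NKX2-5 letters in 2 and T-box letters in 0. Of all 32851 windows of this length, 11.2% held the GATA letters, 11.5% the NKX2-5 letters, 7.36% the ISL1 letters and 3.98% the T-box letters. These are matches of letters and not measured sites.

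The largest nodal excess was that of a receptor. Cckar, the cholecystokinin A receptor, was at 327, 329.6 and 264 CPM in SAN and 2.37, 0.184 and 0.267 CPM in RA (7.48 ± 0.56, adjusted p = 1.78e-08). Sstr4, a somatostatin receptor, was at 65.5, 102 and 99.6 CPM in SAN and 0.451, 0.369 and 1.25 CPM in RA (5.75 ± 0.71, adjusted p = 1.68e-05). Gfra2, the receptor for neurturin, was at 328, 311 and 230.0 CPM in SAN and 15.6, 2.95 and 0.802 CPM in RA (5.87 ± 0.54, adjusted p = 3.3e-07). These 3 receptors of peptides and growth factors were nearly absent from RA, apart from Gfra2 in RA replicate 1.

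Rgs4, which shortens signals from Gi- and Gq-coupled receptors, was at 158, 128 and 119 CPM in SAN and 0.451, 0.369 and 0 CPM in RA (6.75 ± 0.41, adjusted p = 3.97e-10). Alox8, an arachidonate lipoxygenase, was at 73.5, 82.9 and 123 CPM in SAN and 0.789, 2.03 and 0.0892 CPM in RA (5.67 ± 0.44, adjusted p = 3.12e-08). Csmd1, a large membrane protein with complement-control domains, was at 76.1, 69.4 and 41.7 CPM in SAN and 0.564, 0.553 and 2.49 CPM in RA (4.91 ± 0.49, adjusted p = 1.12e-06). None of these had more than 2.49 CPM in an atrial library.

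Dmrt2, a doublesex-related transcription factor, was at 38.1, 35 and 18.7 CPM in SAN and 0.113, 0.184 and 0.445 CPM in RA (4.61 ± 0.58, adjusted p = 1.92e-05). Dpt, dermatopontin, a matrix protein of fibroblasts, was at 27, 31.2 and 63.3 CPM in SAN and 1.58, 0 and 0.356 CPM in RA (4.67 ± 0.52, adjusted p = 4.12e-06). Tmc7, a transmembrane channel-like gene, was at 112, 163 and 94.6 CPM in SAN and 5.98, 2.39 and 4.19 CPM in RA (4.60 ± 0.49, adjusted p = 2.47e-06). For these genes too the tissues were fully separate, which was a condition for being named by size.

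The largest deficits of the node after Nppa and Bmp10 included receptors and secreted factors. Igfbp2, a binding protein of insulin-like growth factors, was at 2.82, 2.71 and 3.61 CPM in SAN and 61.7, 50.3 and 80.7 CPM in RA (−3.99 ± 0.50, adjusted p = 1.9e-05), the reverse of Igfbp5. Calcr, the calcitonin receptor, was at 0.0723, 1.05 and 0 CPM in SAN and 22.1, 38.9 and 6.59 CPM in RA (−3.88 ± 0.48, adjusted p = 1.7e-05). Npy1r, a neuropeptide Y receptor, was at 0.0723, 1.17 and 1.4 CPM in SAN and 31.9, 30.6 and 15.1 CPM in RA (−3.85 ± 0.69, adjusted p = 0.00113). Atrial levels of both receptors were uneven, with replicate 3 lowest, but stayed above each nodal level.

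Angpt1, angiopoietin 1, a ligand of the endothelial receptor Tek, was at 11.9, 27.4 and 70.4 CPM in SAN and 326, 438 and 374 CPM in RA (−3.67 ± 0.46, adjusted p = 1.79e-05). Kcnh7, a potassium channel of the ERG family, was at 21.3, 13.9 and 36.1 CPM in SAN and 319.6, 354 and 258 CPM in RA (−3.74 ± 0.53, adjusted p = 9.84e-05). Gpr126, an adhesion receptor of the developing heart, was at 40.4, 20.2 and 63.1 CPM in SAN and 546, 585 and 371 CPM in RA (−3.68 ± 0.49, adjusted p = 3.58e-05). These 3 were abundant in RA and an order of magnitude lower in most nodal libraries.

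The alcohol dehydrogenase genes Adh6b and Adh1 were at 0.651, 0 and 0.903 CPM and at 0, 0.185 and 0 CPM in SAN. In RA they were at 25.1, 40.9 and 18.3 CPM and at 19.3, 10.9 and 10.1 CPM. Their differences were −4.24 ± 0.55 (adjusted p = 2.94e-05) and −3.71 ± 0.78 (adjusted p = 0.00474). Uts2d, a urotensin-related gene, was at 0, 0.616 and 0 CPM in SAN and 10.1, 13.8 and 28.9 CPM in RA, and Tmem100, a BMP-dependent gene of endothelium, at 1.95, 1.48 and 0.201 CPM in SAN and 28.1, 35.2 and 18.5 CPM in RA. Each of these 4 genes had nodal levels under 2 CPM and was called lower. edgeR and DESeq2 did not call Uts2d (adjusted p = 0.0551 and 0.0797).

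Genes of G protein and cAMP signalling were higher in SAN in 8 of 48 tested and lower in 3, with a median of 0.23. Besides Cckar, Rgs4, Rgs6 and Gnao1, the higher genes included Pde1a, a calcium-activated phosphodiesterase, at 165, 271 and 122 CPM in SAN and 32.8, 36.3 and 26 CPM in RA (2.45 ± 0.29, adjusted p = 1.07e-05). Ednrb, the endothelin B receptor, was lower, at 92.4, 42.2 and 94.6 CPM in SAN and 369, 302 and 230.4 CPM in RA (−2.02 ± 0.28, adjusted p = 7.77e-05). Without 1 of the 6 libraries, 6 or 7 of these genes were called higher and 1 to 5 lower.

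In the BMP and TGF-β list, 5 of 32 genes were higher and 3 lower, with a median of −0.01. Bmp2 and Bmp4, ligands of related structure, were higher in SAN. Bmp2 was at 56.7, 53.7 and 47 CPM in SAN and 3.04, 2.95 and 4.01 CPM in RA (3.63 ± 0.45, adjusted p = 1.69e-05) and Bmp4 at 201, 248 and 121 CPM in SAN and 13.6, 15.8 and 23.5 CPM in RA (3.33 ± 0.44, adjusted p = 3.66e-05). Smad9, an intracellular transducer of BMP signals, was also higher, at 53, 55 and 52.4 CPM in SAN and 10.3, 4.79 and 7.57 CPM in RA (2.72 ± 0.30, adjusted p = 4.17e-06). The nodal libraries thus held more Bmp2 and Bmp4 and less Bmp10 than the atrial ones, without overlap for any of them.

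Tgfbr3, a co-receptor of TGF-β ligands, was lower in SAN, at 33.3, 13.2 and 31.8 CPM in SAN and 282, 305 and 221 CPM in RA (−3.41 ± 0.28, adjusted p = 6.7e-08). Of 29 Wnt genes, 5 were higher and 2 lower, with a median of 0.18. Fzd7, a Wnt receptor, was at 257, 312 and 189 CPM in SAN and 28.8, 27.8 and 40.3 CPM in RA (2.92 ± 0.26, adjusted p = 2.4e-07). Sfrp1, a secreted Wnt inhibitor, was at 321, 536 and 430.2 CPM in SAN and 93.6, 123 and 184 CPM in RA (1.70 ± 0.31, adjusted p = 0.00128). The receptor and the inhibitor were both higher in every nodal library.

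The ligand Wnt2 was at 7.16, 8.26 and 10.2 CPM in SAN and 1.01, 0.553 and 0 CPM in RA (2.69 ± 0.62, adjusted p = 0.00884), and its call was lost without RA replicate 3 (adjusted p = 0.0526) and with edgeR (adjusted p = 0.183). Wnt2b was lower, at 2.82, 10.9 and 8.83 CPM in SAN and 30.4, 37 and 22.6 CPM in RA (−1.996 ± 0.46, adjusted p = 0.0093), but not without SAN replicate 1 or RA replicate 2 (adjusted p up to 0.0875). Without SAN replicate 1 the Wnt calls were 3 higher and 0 lower, and 3 higher were also left without RA replicate 3. The groups of both ligands were separate.

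Of 15 FGF and PDGF genes, 2 were higher and 0 lower. Fgf16, an FGF ligand of the heart, was at 11.4, 22.6 and 7.12 CPM in SAN and 0.113, 0 and 0.0892 CPM in RA (3.65 ± 0.52, adjusted p = 0.000112). Pdgfra, the receptor of PDGF-A and a marker of mesenchyme, was at 245, 219.7 and 165 CPM in SAN and 37.9, 66.5 and 39.5 CPM in RA (2.14 ± 0.26, adjusted p = 1.32e-05). Fgf16 reads in RA were at most 0.113 CPM, about 1 read.

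No Notch gene of 15 and no retinoic acid gene of 17 was called by limma. Among them Notch1 was at 40.8, 50.9 and 83.6 CPM in SAN and 131, 152 and 92.6 CPM in RA (adjusted p = 0.0505) and Aldh1a2, the enzyme that makes retinoic acid in epicardium, at 12.2, 15.6 and 43.7 CPM in SAN and 63.3, 46.4 and 81.1 CPM in RA (adjusted p = 0.0875). At an unadjusted p under 0.05 there were 4 Notch and 6 retinoic acid genes, and 2825 over all genes. edgeR called 0 of either list, and DESeq2 called 2 Notch genes higher and 1 lower and 1 retinoic acid gene in each direction.

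Calcium handling genes were higher in 3 of 23 tested and lower in 2, with a median of −0.24. Pln, phospholamban, an inhibitor of the sarcoplasmic calcium pump, was at 1381, 932 and 813 CPM in SAN and 285, 379 and 207 CPM in RA (1.85 ± 0.31, adjusted p = 0.000632). Hrc, a calcium-binding protein of the sarcoplasmic reticulum, was at 223, 258 and 189.6 CPM in SAN and 87.3, 127 and 108 CPM in RA (1.05 ± 0.21, adjusted p = 0.00359). Sln was the third higher gene of this list, and the groups of all 3 were separate.

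Itpr2, an inositol trisphosphate receptor, was lower in SAN, at 88.2, 83.7 and 117 CPM in SAN and 317, 484 and 282 CPM in RA (−1.87 ± 0.23, adjusted p = 1.68e-05). Ryr3, a minor ryanodine receptor of the heart, was at 16.8, 45.3 and 99.9 CPM in SAN and 312, 378 and 207 CPM in RA (−2.74 ± 0.76, adjusted p = 0.0338). The Ryr3 call was lost without SAN replicate 1 or 2 or RA replicate 1, 2 or 3 (adjusted p up to 0.218) and was not made by edgeR (adjusted p = 0.123) or DESeq2 (adjusted p = 0.21).

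Of 32 potassium channel genes, 2 were higher and 2 lower, with a median of 0.00, beside 2.24% higher and 3.09% lower over all genes tested. Kcnj5, described above, was among the higher genes. Abcc9, the sulphonylurea receptor of ATP-sensitive channels, was lower at 89.7, 55.2 and 99.5 CPM in SAN and 343, 339 and 291 CPM in RA (−2.02 ± 0.40, adjusted p = 0.00281). Of 13 sodium channel genes, 1 was lower. That gene, Fgf12, which binds and modulates sodium channels, was at 8.03, 10.2 and 21 CPM in SAN and 49.3, 58.6 and 60.7 CPM in RA (−2.13 ± 0.50, adjusted p = 0.0108), and was not called without SAN replicate 1 or 2 (adjusted p up to 0.0742).

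Sarcomere genes were higher in 5 of 28 tested and lower in 2, with a median of 0.22, but the calls depended on single libraries. Without SAN replicate 1 there were 1 higher and 0 lower, without RA replicate 1 there were 2 and 0, and without RA replicate 2 or SAN replicate 2 there were 3 and 0. Myh7, slow myosin, was at 2917, 2342 and 2223 CPM in SAN and 1260.3, 1640.2 and 1315 CPM in RA (0.83 ± 0.19, adjusted p = 0.00986), and its call was lost without SAN replicate 1 or RA replicate 1 (adjusted p up to 0.0807). Tcap, a Z-disc protein, was at 49.7, 19 and 23.4 CPM in SAN and 12.4, 8.84 and 9.89 CPM in RA (1.37 ± 0.28, adjusted p = 0.00441) and was called in each of these fits. Tnnc1, the slow and cardiac troponin C, was at 1035, 949 and 693 CPM in SAN and 557, 318 and 537 CPM in RA (0.95 ± 0.21, adjusted p = 0.00728), with its call lost without SAN replicate 1 or RA replicate 2 (adjusted p = 0.0581 and 0.0652). The library with the highest Myh7 and Tcap was SAN replicate 1, which also led the ventricular genes, and the part of ventricular tissue in these values beyond leaving out that library was not tested.

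Smpx, a small muscle protein, was lower at 113, 74.8 and 148 CPM in SAN and 463, 454 and 383 CPM in RA (−1.99 ± 0.53, adjusted p = 0.0273), and was not called without SAN replicate 1 or 2 or RA replicate 1, 2 or 3 (adjusted p up to 0.147). Respiratory chain genes were called higher in 5 of 22 and lower in 0, with a median of 0.44, and 1 was called without SAN replicate 1 or without RA replicate 2. Ndufa1, a complex I subunit, was at 89.3, 65.1 and 84.3 CPM in SAN and 33, 35.2 and 30 CPM in RA (1.25 ± 0.24, adjusted p = 0.002). Its groups did not overlap, nor did those of the other 4 called genes of the chain.

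Of 20 glycolysis genes, 4 were higher and 0 lower, with a median of 0.51, and 1 to 6 were called when 1 library was left out, with the fewest without SAN replicate 2. Hk2, the inducible hexokinase, was at 52.2, 59.9 and 49.3 CPM in SAN and 19.1, 20.6 and 18 CPM in RA (1.43 ± 0.33, adjusted p = 0.0102), and its call was lost without SAN replicate 2 (adjusted p = 0.0567). Of 23 fatty acid oxidation genes, 2 were higher and 0 lower, both of them fatty acid binding proteins. Fabp3, of heart muscle, was at 284, 276 and 254 CPM in SAN and 65.7, 50.5 and 88 CPM in RA (2.01 ± 0.30, adjusted p = 0.000179), and Fabp4, of fat cells and capillaries, was at 23.2, 48.8 and 32 CPM in SAN and 1.69, 0 and 7.13 CPM in RA (3.61 ± 0.49, adjusted p = 4.98e-05).

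Among 28 cell cycle genes, 2 were lower and 0 higher, with a median of −0.18, beside 3.09% lower over all genes tested. Cdkn1c, the cyclin-dependent kinase inhibitor p57, was at 123, 78.8 and 175 CPM in SAN and 960.1, 727 and 714 CPM in RA (−2.72 ± 0.35, adjusted p = 2.12e-05). Ccnd2, the growth-promoting cyclin D2, was at 249, 234 and 422 CPM in SAN and 730.4, 716 and 663 CPM in RA (−1.27 ± 0.19, adjusted p = 0.000145). The 2 called genes act in opposite directions on the cycle, and both were lower in every nodal library. None of the mitotic genes tested, such as Cenpe at 126, 161 and 100.2 CPM in SAN and 208, 171 and 207 CPM in RA, was called.

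Genes of axon guidance and cell adhesion were called in both directions, 5 higher and 10 lower of 35, with a median of −0.27. Odz4, a teneurin, was at 579, 769.9 and 650.1 CPM in SAN and 45, 63 and 41 CPM in RA (3.73 ± 0.39, adjusted p = 1.92e-06). Unc5b, a netrin receptor, was at 212, 245 and 312 CPM in SAN and 56.3, 55.1 and 61.3 CPM in RA (2.12 ± 0.24, adjusted p = 5.91e-06), while its ligand gene Ntn1 was at 36.4, 14.8 and 19.8 CPM in SAN and 91.5, 124 and 112 CPM in RA (−2.25 ± 0.30, adjusted p = 5.09e-05). The receptor and the ligand thus lay on opposite sides, each without overlap.

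Sema3c, a secreted semaphorin, was higher at 62.8, 82.4 and 35.6 CPM in SAN and 14.21, 10.1 and 7.84 CPM in RA (2.34 ± 0.42, adjusted p = 0.00127). Sema3d, another, was lower at 1.66, 13.1 and 39.5 CPM in SAN and 83.8, 102 and 81.1 CPM in RA (−2.96 ± 0.61, adjusted p = 0.00397), with SAN replicate 1 the lowest library, and edgeR did not call it (adjusted p = 0.0531). Plxnd1, a semaphorin receptor of endothelium, was at 102, 104 and 164 CPM in SAN and 441, 455 and 341 CPM in RA (−1.76 ± 0.23, adjusted p = 4.12e-05). The number of lower genes in this list was 6 without SAN replicate 1, without SAN replicate 2 or without RA replicate 1.

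Markers of endothelium and endocardium were lower in SAN in 10 of 18 genes tested and higher in 0 by limma, with a median of −1.20. edgeR called 9 lower and 1 higher, and DESeq2 called 11 lower and 1 higher. Their summed level was 1035, 683 and 1206 CPM in SAN and 2903, 3194 and 2424 CPM in RA. Pecam1, an adhesion molecule of all endothelium, was at 80.3, 67.2 and 103 CPM in SAN and 209, 209.6 and 191 CPM in RA (−1.29 ± 0.24, adjusted p = 0.0014). Npr3, a natriuretic peptide receptor of endocardium, was at 52.1, 22.8 and 91.7 CPM in SAN and 647, 569.8 and 461 CPM in RA (−3.50 ± 0.34, adjusted p = 8.26e-07). In such bulk tissue, fewer cells of a type and less RNA per cell cannot be told apart.

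Plvap, a protein of fenestrated capillaries and endocardium, was at 17.1, 1.66 and 5.62 CPM in SAN and 93.7, 95.2 and 56.9 CPM in RA (−3.56 ± 0.70, adjusted p = 0.00268), and Emcn, endomucin, was at 63.7, 15.5 and 79.5 CPM in SAN and 226, 204 and 161 CPM in RA (−2.15 ± 0.39, adjusted p = 0.00136). Flt1, a VEGF receptor, was at 51, 58.8 and 97.9 CPM in SAN and 193, 235 and 151 CPM in RA (−1.50 ± 0.27, adjusted p = 0.00114). SAN replicate 2 was lowest for Plvap and Emcn, and 6 of the 18 genes were called without it. The part of endothelial content in the lower values of Tek ligand Angpt1, Plxnd1, Ednrb and Tmem100 was not tested.

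**Figure D3:**
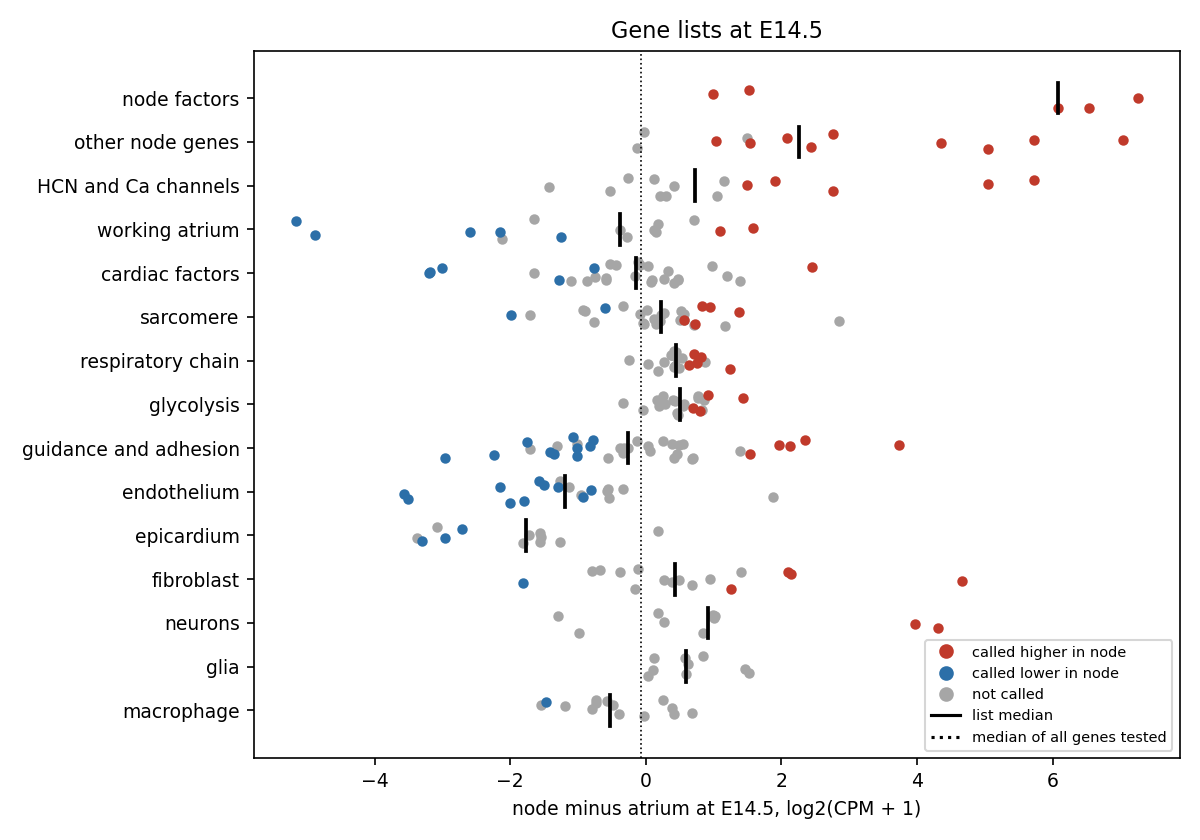
Each point is a tested gene of a list at E14.5, placed by its SAN minus RA difference in log2(CPM + 1), red where called higher, blue where called lower and grey where not called, with the list median as a black bar and the median of all genes tested (−0.07) as a dotted line. The node factors have a median of 6.09, and the endothelial and epicardial lists have medians of −1.20 and −1.77.

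Epicardial markers differed between the nodal libraries themselves. Their summed level was 57.6, 154 and 426 CPM in SAN and 526, 581 and 615 CPM in RA. Upk1b, a uroplakin of mesothelium, was at 0, 3.7 and 14.5 CPM in SAN and 30.6, 26 and 23.1 CPM in RA (−2.71 ± 0.77, adjusted p = 0.0392), and Bnc1, a mesothelial zinc finger factor, at 0, 7.15 and 15.7 CPM in SAN and 47.9, 53.8 and 48.1 CPM in RA (−3.30 ± 0.86, adjusted p = 0.0234). Wt1, a factor of epicardial cells, was at 5.35, 16 and 33.7 CPM in SAN and 44.9, 58.2 and 49.3 CPM in RA and was not called (adjusted p = 0.0511). Replicate 1 of SAN was the lowest and replicate 3 the highest of the nodal libraries for all 3 genes.

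Of 12 epicardial markers, 3 were called lower and 0 higher, with a median of −1.77. The call of Upk1b was lost without SAN replicate 1 or 2 or RA replicate 1, 2 or 3 and that of Bnc1 without SAN replicate 1 or RA replicate 1, 2 or 3, with adjusted p up to 0.29 and 0.198. Of the 12, 1 was called without SAN replicate 1 or without any RA replicate, and 7 without SAN replicate 3. edgeR called 0 and DESeq2 1, while 8 had an unadjusted p under 0.05 by limma. Rspo1, a Wnt activator, followed the same order in SAN, at 0, 1.6 and 8.03 CPM in SAN and 23.3, 18.1 and 26.2 CPM in RA, as did Lrp2, an endocytic receptor, at 0, 1.66 and 6.92 CPM in SAN and 18.5, 23 and 35.1 CPM in RA. The Rspo1 call was lost without SAN replicate 1 (adjusted p = 0.096) and was not made by edgeR (adjusted p = 0.243) or DESeq2 (adjusted p = 0.0954), and edgeR did not call Lrp2 (adjusted p = 0.0618). The part of epicardial content in the values of Rspo1, Sema3d and Lrp2 was not tested.

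Fibroblast markers were higher in 4 of 16 and lower in 1, with a median of 0.44, while their summed level was 4792, 5140 and 7916 CPM in SAN and 8122, 8346 and 7057 CPM in RA. The lower gene was Fn1, fibronectin, at 1153, 916 and 1336 CPM in SAN and 4571, 4192 and 3170.0 CPM in RA (−1.81 ± 0.38, adjusted p = 0.0047). Fap, an enzyme of activated fibroblasts, was at 9.62, 11.9 and 14.8 CPM in SAN and 3.5, 2.39 and 0.802 CPM in RA (2.10 ± 0.48, adjusted p = 0.00845), and Lum, a proteoglycan, at 75.3, 58.6 and 95.9 CPM in SAN and 32, 35.9 and 25.7 CPM in RA (1.25 ± 0.36, adjusted p = 0.0428). The call of Fap was lost without RA replicate 3 (adjusted p = 0.0578) and that of Lum without any 1 of the 6 libraries (adjusted p up to 0.161). Among 21 collagens, 3 were higher and 1 lower. Col15a1, a collagen of basement membranes, was at 22, 25.7 and 40.3 CPM in SAN and 2.82, 6.26 and 4.72 CPM in RA (2.44 ± 0.36, adjusted p = 0.000131), and Col23a1, a membrane collagen, at 24.1, 12.6 and 20.4 CPM in SAN and 178, 205 and 149 CPM in RA (−3.19 ± 0.50, adjusted p = 0.000297).

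Neuronal genes were called higher in 2 of 10 tested and lower in 0. Uchl1, a ubiquitin hydrolase of neurons, was at 199.7, 182 and 109 CPM in SAN and 9.36, 6.45 and 12.6 CPM in RA (3.97 ± 0.41, adjusted p = 1.37e-06). Th, the rate-limiting enzyme of catecholamine synthesis, was at 18.6, 49.7 and 8.53 CPM in SAN and 0.113, 0 and 0.0892 CPM in RA (4.31 ± 0.75, adjusted p = 0.000842). Dbh, the enzyme that makes noradrenaline, was at 1.23, 1.11 and 4.11 CPM in SAN and 0.902, 0.553 and 0 CPM in RA and was not called (adjusted p = 0.234). Both called genes were higher in each nodal library than in any atrial one.

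No glial marker of 9 was called by limma, and the summed level was 21.5, 38.0 and 84.8 CPM in SAN and 18.9 to 20.3 CPM in RA. Sox10, the defining factor of glia, was at 0, 2.84 and 5.12 CPM in SAN and 0, 0 and 0 CPM in RA (adjusted p = 0.196). edgeR and DESeq2 each called 1 of the 9 higher, and 1 had an unadjusted p under 0.05 by limma. Of 14 macrophage and leukocyte markers, 1 was lower (Lyz2, lysozyme, −1.47 ± 0.39, adjusted p = 0.0243) and 0 were higher, beside 3.09% lower over all genes tested. The call of Lyz2 was lost without SAN replicate 2 or 3 or RA replicate 2 or 3 (adjusted p up to 0.162) and with a replicate block (adjusted p = 0.0563).

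Of 11 smooth muscle and pericyte markers, 1 was higher (Cspg4) and 1 was lower (Abcc9, given above with the potassium channels). Cspg4, the pericyte proteoglycan NG2, was at 54.9, 38.2 and 58.1 CPM in SAN and 11.5, 7 and 1.87 CPM in RA (2.94 ± 0.45, adjusted p = 0.000249). Erythroid markers were uneven in RA, with a summed level of 1605, 390 and 4751 CPM against 917, 538 and 698 CPM in SAN. Of the 9 tested, Tfrc, the transferrin receptor of many dividing cells, was higher (0.89 ± 0.22, adjusted p = 0.0155) and Alas2, the first enzyme of haem synthesis in red cells, was lower (−1.95 ± 0.56, adjusted p = 0.0424). The call of Tfrc was lost without SAN replicate 2 or 3 or RA replicate 1 or 2 (adjusted p up to 0.0941) and that of Alas2 without SAN replicate 1 or 2 or RA replicate 1 or 3 (adjusted p up to 0.196). No cartilage and valve marker of 7 was called by limma, where 1 had an unadjusted p under 0.05, and edgeR and DESeq2 each called 1 higher. None of the airway, lung and thymus markers reached the level for testing.

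**Figure D4:**
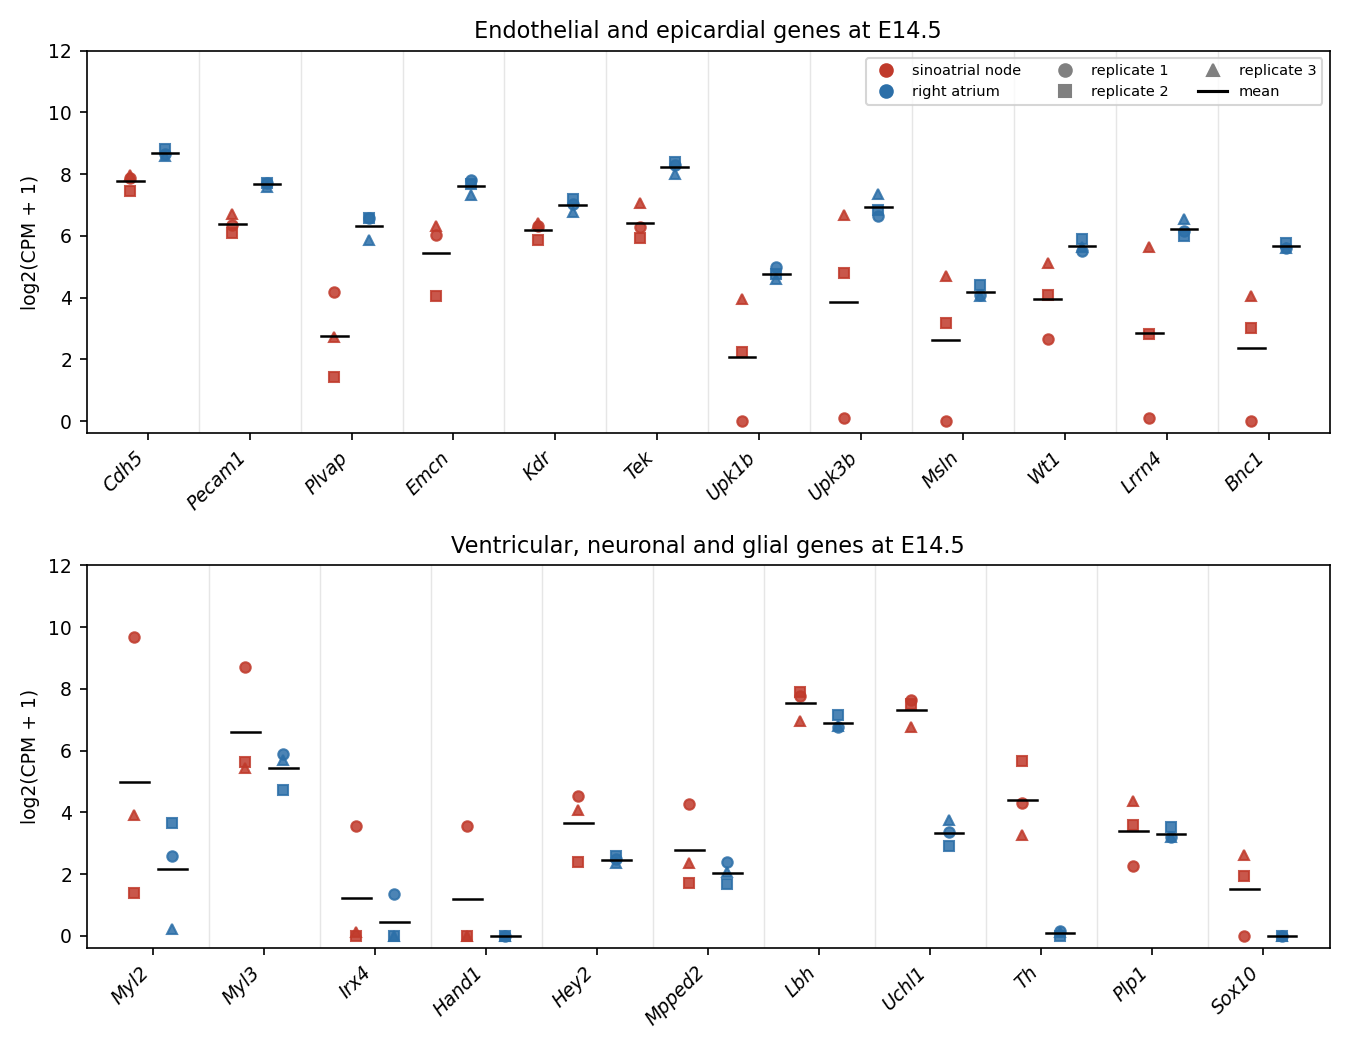
Points are single libraries at E14.5 (red, SAN; blue, RA; circle, square and triangle for replicates 1, 2 and 3), bars are group means, and the y axis is log2(CPM + 1). Pecam1, Plvap and Emcn are lower in every nodal library than in any atrial one, Upk1b is at 0 in SAN replicate 1 and 14.5 CPM in replicate 3, and Myl2 reaches 829 CPM in SAN replicate 1.

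The embryonic differences were then compared with those after birth. At P4, 5.96% of genes tested were called between SAN and RA, and at P14 4.55%. Of the 393 genes higher in SAN at E14.5, 173 were also called higher at P4 (2.97% of all genes tested), 129 at P14 (3.21%) and 113 at both, while 194 were called at neither. Of the 543 lower genes, 158 were also called lower at P4 (2.99%), 64 at P14 (1.34%) and 61 at both, while 365 were called at neither. A call at one stage and not at another does not show that the stages differ, so the difference itself was tested.

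The E14.5 difference minus the mean of the P4 and P14 differences was called for 393 genes (2.24%), 142 above 0 (0.808%) and 251 below 0 (1.43%). Without SAN replicate 1 or 2 the total was 224 or 215, and without RA replicate 1 or 2 it was 207 or 233. Of the genes higher at E14.5, 62 had a difference called as larger than after birth, and of the lower genes 110. Among genes called at neither postnatal stage, 40 of 194 and 85 of 365 passed this test. These genes were picked by calls of the same fit, so their shares cannot be set against those of all genes tested.

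Cckar was higher in SAN by 7.48 at E14.5, 4.90 at P4 and 1.60 at P14, and the embryonic excess over the postnatal mean was 4.23 ± 0.69 (adjusted p = 0.0014). Rgs4 stood at 6.75, 5.45 and 2.85 (2.60 ± 0.50, adjusted p = 0.00532), and Smoc2 at 7.03, 5.70 and 3.19 (2.59 ± 0.55, adjusted p = 0.0125). Isl1 stood at 7.26, 5.42 and 3.61 (2.74 ± 0.71, adjusted p = 0.0454). For all 4 genes the estimate was largest in the embryo and smallest at P14. The tests of Cckar and Isl1 depended on the processing, and those of Isl1 and Smoc2 on single libraries. The Cckar test was not passed with edgeR or DESeq2 on recovered reads (adjusted p = 0.794 and 0.638). That of Isl1 was lost with both (adjusted p = 0.226 and 0.103). It was also lost for 13 of the 18 libraries left out 1 at a time, including each of the 6 embryonic ones. That of Smoc2 was lost without SAN replicate 2 or RA replicate 1. The corresponding tests missed the threshold for Shox2 (1.40 ± 0.57, adjusted p = 0.258), Tbx3 (1.10 ± 0.42, adjusted p = 0.212) and Hcn4 (−1.50 ± 0.41, adjusted p = 0.0577).

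Dpt and Fndc5 were called higher in SAN at E14.5 and not after birth, and both differences from the postnatal mean passed the test. Dpt was 4.67 at E14.5, −0.77 at P4 and −0.10 at P14 (5.10 ± 0.63, adjusted p = 0.000119). Fndc5, the precursor of irisin, was at 20.2, 19.9 and 27.4 CPM in SAN and 3.5, 3.68 and 6.15 CPM in RA at E14.5 (2.13 ± 0.38, adjusted p = 0.00116). At P4 it was at 27.7, 7.62 and 10.8 CPM in SAN and 189.9, 195 and 87.6 CPM in RA, and at P14 at 52, 88.5 and 47.7 and 559.7, 456 and 593 CPM. Its difference thus changed sign, to −3.38 and −3.12, and the test of the difference gave 5.38 ± 0.47 (adjusted p = 1.89e-06).

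Of the 15 working atrium genes, 9 had an embryonic difference above the postnatal one and 0 below. In 7 of the 9 the embryonic difference was nearer to 0 than the postnatal mean, and in the other 2, Sln and Kcnj5, it was further from 0. Nppa stood at −5.16, −8.92 and −8.20 (3.40 ± 0.73, adjusted p = 0.0125), Bmp10 at −4.88, −8.49 and −9.35 (4.04 ± 0.61, adjusted p = 0.000753) and Gja1 at −2.16, −5.25 and −2.12 (1.53 ± 0.40, adjusted p = 0.0466). The Gja1 estimate at P14 was close to that at E14.5. Its test was lost for 15 of the 18 libraries left out 1 at a time (adjusted p up to 0.176). These included SAN replicates 1 and 3 and RA replicates 1, 2 and 3 of E14.5. It was also lost with a replicate block (adjusted p = 0.0588).

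Kcnj3 was called in the postnatal tests but not at E14.5, at −2.76 and −1.95 after −0.28 at E14.5 (2.08 ± 0.39, adjusted p = 0.00442). Sln turned from higher in SAN at E14.5 to lower, at −1.10 and −1.10 (2.68 ± 0.35, adjusted p = 0.000203). The troponin gene Tnnc1 stood at 0.95, −0.48 and −1.04 (1.70 ± 0.26, adjusted p = 0.000753). Cntn2 and Cpne5 went the other way, from no call at E14.5 to 4.14 and 4.45 for Cntn2 (−4.42 ± 0.85, adjusted p = 0.00549) and 1.83 and 2.79 for Cpne5 (−2.34 ± 0.57, adjusted p = 0.0295). edgeR did not pass Cntn2 (adjusted p = 0.148) or Cpne5 (adjusted p = 0.0571). Cpne5 was lost for 5 of the 18 libraries left out 1 at a time, including SAN replicates 1 and 2 and RA replicates 1 and 2 of E14.5.

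Among the 12 epicardial markers, 6 had an embryonic difference below the postnatal one and 0 above. Lrrn4, a mesothelial membrane protein, was at 0.0723, 6.1 and 49.2 CPM in SAN and 70.5, 62.4 and 93.4 CPM in RA at E14.5, and its difference stood at −3.38, 4.17 and 3.21 over the stages (−7.06 ± 1.24, adjusted p = 0.00283). Lrp2 stood at −3.22, 3.40 and 3.09 (−6.46 ± 0.73, adjusted p = 4.2e-05). Igfbp2 stood at −3.99, 0.30 and 1.76 (−5.02 ± 0.61, adjusted p = 0.000114). All 3 estimates were below 0 at E14.5 and above 0 at P4 and P14. edgeR and DESeq2 did not pass Lrrn4 (adjusted p = 0.0834 and 0.0918).

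Of 35 guidance and adhesion genes, 10 had an embryonic difference below the postnatal one and 1 above. Ntn1 stood at −2.25, −0.28 and 0.81 (−2.51 ± 0.37, adjusted p = 0.000659). Odz4, higher in SAN at each stage, stood at 3.73, 6.05 and 6.35 (−2.47 ± 0.48, adjusted p = 0.00593). Sema3d, which also stands in the epicardial list, stood at −2.96, 0.46 and 2.09 (−4.23 ± 0.74, adjusted p = 0.00276).

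A total of 27 genes were called in opposite directions at E14.5 and at a postnatal stage, a count that depended on single libraries and on the test. It was 12 without SAN replicate 1 or 2, 14, 11 and 16 without RA replicates 1, 2 and 3, 40 without SAN replicate 3, 17 without RA replicate 1 of P14, 13 with edgeR and 41 with DESeq2. Of the 27, 10 were also found without SAN replicate 1. Of the higher genes, 5 were called lower at P4 and 7 at P14, and of the lower genes, 8 were called higher at P4 and 10 at P14. Beside Fndc5, Sln, Lrp2 and Igfbp2 they included the slow myosin gene Myh7, at 0.83 in the embryo and −0.77 at P14, and Enpp2, the lysophospholipase autotaxin, at 2.41 and −1.87 at P4. The E14.5 call of Enpp2 was lost without SAN replicate 1 (adjusted p = 0.08), as was that of Myh7.

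**Figure D5:**
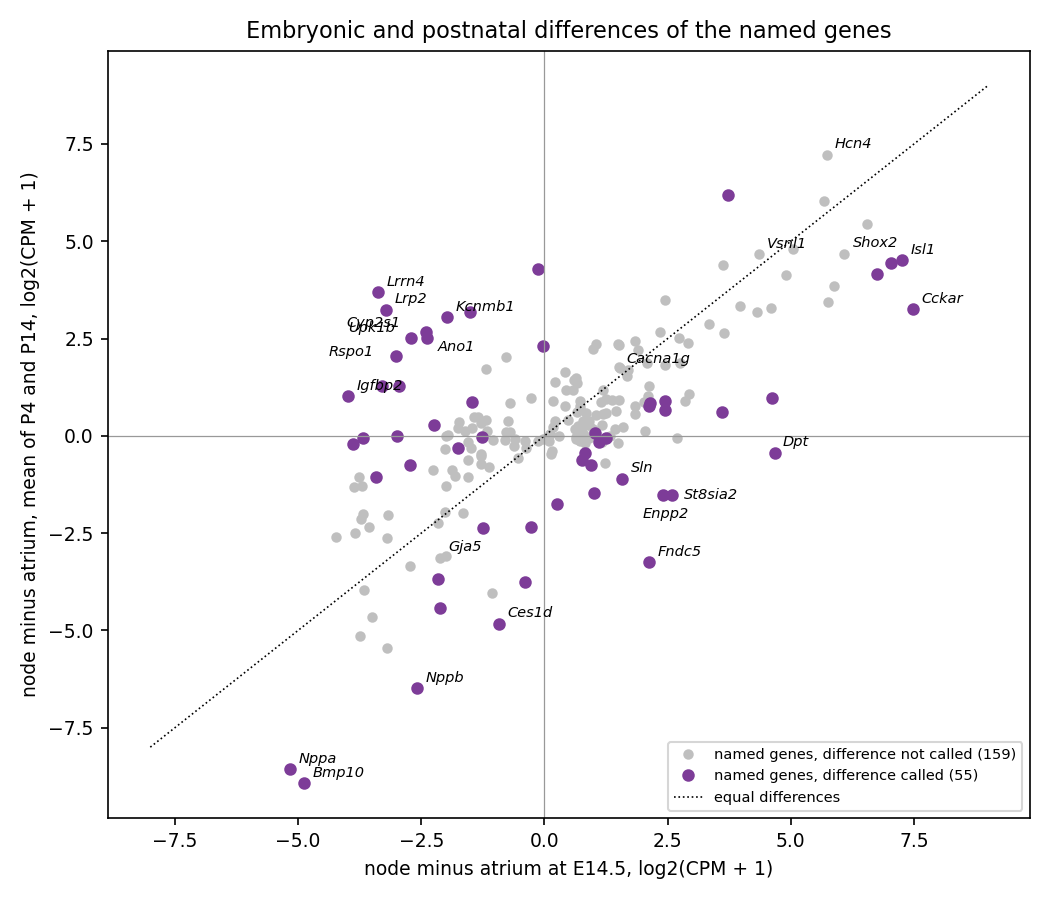
Each point is a named gene, with its SAN minus RA difference at E14.5 on the x axis and the mean of those at P4 and P14 on the y axis, both in log2(CPM + 1). Genes whose embryonic and postnatal differences were called as unequal are purple (55 of 214) and the dotted line marks equal differences, with Cckar and Dpt to its right and Lrrn4 and Lrp2 far to its left. Some of the purple genes were named because they passed this test.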

How the data were processed

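The authors deposited 1 table of scaled read signal per gene, 20870 genes by 25 libraries. Per the submitters' processing notes, TopHat2 2.0.6, edgeR and the mm8 build were used; further settings are not given in the sources used here. The deposited signal was TMM-scaled: in the 18 libraries used, 100% of values were whole reads (within 0.1 read) after division by the value of 1 read. Values were divided by 24.3 to give CPM. The 7 Isl1 libraries of another set were not used here. Symbols matched the reference for 18262 genes (87.5%).

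Tests covered genes reaching 1 CPM in 3 or more of 18 libraries, with limma 3.58.1 (R 4.3.3) on log2(CPM + 1), fitting a trend of variance over level and 1 mean for each of 6 groups, with Benjamini-Hochberg adjustment. edgeR 4.0.16 and DESeq2 1.42.0 were run on the recovered reads as alternatives. Other alternatives were scaling, filters, pseudocounts of 0.25 and 4, a replicate block, the 6 libraries alone and leaving out each library. The procedure was tested on simulated data. Replicates of a tissue differed by more than counting error.

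Genes named with values are all members of core lists (node factors and markers, pacemaker and calcium channels, connexins, working atrium), up to 5 members of each other list with the smallest p, the 15 largest called differences in each direction and the 8 largest differences from the postnatal mean, with a higher group mean of at least 5 CPM, and the ventricle markers. Gene models without a proper symbol and haemoglobin, histocompatibility, immunoglobulin, ribosomal and mitochondrial genes did not enter the size rule. Genes named by the size of either difference also had to have SAN and RA libraries that did not overlap at E14.5. Members and lists were chosen with earlier results of these data known. Some genes that meet these rules are not reported here. Promoters were RefSeq entries of GRCm38.p6.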

Additional observations from a re-analysis of the deposited data

Results flagged for a closer look

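For 55 named genes, of which 54 are given here, the SAN minus RA difference at E14.5 differed from the mean of those at P4 and P14 in limma's test (adjusted p under 0.05), where 2.24% of all genes tested passed. The 8 largest differences in each direction were named because they passed this test. The share of named genes that passed therefore cannot be set against that of all genes. Each value in parentheses is the embryonic minus the mean postnatal difference on the log2(CPM + 1) scale.

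Genes called higher in SAN at E14.5 with a larger excess than after birth were Fndc5 (5.38), Dpt (5.10), Cckar (4.23), St8sia2 (4.11), Enpp2 (3.94), Dmrt2 (3.63), Fabp4 (3.00), Isl1 (2.74), Sln (2.68), Rgs4 (2.60), Smoc2 (2.59), Col15a1 (1.77), Tnnc1 (1.70), Prrx1 (1.56), Unc5b (1.35), Ndufa1 (1.31), Pdgfra (1.30), Myh7 (1.28), Kcnj5 (1.25) and Gnao1 (0.95). Among these, edgeR and DESeq2 did not pass Cckar (adjusted p = 0.794 and 0.638), Dmrt2 (0.67 and 0.501) or Isl1 (0.226 and 0.103). The 1 higher gene with a smaller excess than after birth was Odz4 (−2.47).

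Genes called lower in SAN at E14.5 with a difference further below that after birth were Lrp2 (−6.46), Upk1b (−5.22), Rspo1 (−5.08), Igfbp2 (−5.02), Ano1 (−4.89), Bnc1 (−4.58), Sema3d (−4.23), Calcr (−3.66), Ccdc144b (−3.63), Irx6 (−2.996), Ntn1 (−2.51), Tgfbr3 (−2.36), Lyz2 (−2.34), Cdkn1c (−1.98), Plxnd1 (−1.44) and Ccnd2 (−1.25). Of these, edgeR and DESeq2 did not pass Calcr (adjusted p = 0.933 and 0.562), Irx6 (1 and 0.792), Ccdc144b (0.349 and 0.18) or Bnc1 (0.132 and 0.0995), and edgeR did not pass Rspo1 (0.0615). The epicardial genes Upk1b, Bnc1 and Sema3d are among them, and their nodal levels at E14.5 were lowest in SAN replicate 1.

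Genes called lower at E14.5 but further apart after birth were Bmp10 (4.04), Nppb (3.90), Nppa (3.40), Fgf12 (2.31), Gja1 (1.53) and Pam (1.11). Those not called at E14.5 whose difference lay above that after birth were Ces1d (3.90), Has2 (2.48), Kcnj3 (2.08), Fgf13 (2.00) and Ldha (1.40), and those whose difference lay below were Lrrn4 (−7.06), Cyp2s1 (−5.09), Kcnmb1 (−5.03), Mylk (−4.71), Cntn2 (−4.42) and Cpne5 (−2.34). Both natriuretic peptide genes were less apart in the embryo. Of the genes of these groups, edgeR and DESeq2 did not pass Ces1d (adjusted p = 1 and 0.608), Cyp2s1 (0.208 and 0.238), Fgf12 (0.102 and 0.11) or Lrrn4 (0.0834 and 0.0918), and edgeR did not pass Has2 (0.132), Cntn2 (0.148) or Cpne5 (0.0571).

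Of the 54 tests, 18 were lost in limma without at least 1 of the 18 libraries, with adjusted p reaching 0.0519 to 0.176. These were the tests of Bnc1, Cdkn1c, Col15a1, Cpne5, Cyp2s1, Fgf12, Gja1, Gnao1, Has2, Isl1, Kcnj5, Ldha, Ndufa1, Nppb, Pam, Pdgfra, Smoc2 and Unc5b. Left out 1 at a time, 15 libraries removed the test of Fgf12, 15 that of Gja1 and 13 that of Isl1. The E14.5 calls of Ano1 (0.192), Bnc1 (0.198), Enpp2 (0.08), Fgf12 (0.0742), Myh7 (0.0807), Rspo1 (0.096), St8sia2 (0.142), Tnnc1 (0.0581) and Upk1b (0.29) were lost without SAN replicate 1, with the adjusted p in parentheses.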

How the results depend on the processing

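Of 120 named genes called at E14.5, 0 changed direction under any alternative tried, while 18 of the 94 tested but not called did. The groups of nearly all called genes did not overlap (392 of 393 higher, 540 of 543 lower). For such genes leaving out 1 library cannot change the direction, so the 0 does not show stability in those fits. Of the 120, 80 were called under every alternative that gave a value, 34 lost their call when at least 1 library was left out and 27 under at least 1 other alternative. Against 936 calls (393 higher, 543 lower), the 6 libraries alone gave 1546 (665 and 881), and edgeR called 304 lower. Against 393 genes called as different from the postnatal mean (142 above, 251 below), DESeq2 called 664 (252 and 412) and edgeR 146 below. Leaving out 1 of the 18 libraries gave 593 to 1064 calls at E14.5 (277 to 448 higher, 278 to 630 lower) and 207 to 452 against the postnatal mean (83 to 163 above, 120 to 306 below). The cause was not tested. Same-numbered SAN and RA libraries did not deviate together (correlations 0.119, −0.065 and −0.092 at E14.5), so the numbers were not taken to pair them, although sex-linked transcripts followed the number in both tissues. A replicate block gave 841 calls (367 higher, 474 lower) and 296 against the postnatal mean (106 above, 190 below). With 3 libraries a group and 1 read worth up to 0.184 CPM, differences of genes near 1 CPM were poorly resolved.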

Other observations

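The libraries differed in sex-linked transcripts in the same way in both tissues. Xist, the RNA of the inactive X chromosome, was at 0.217, 3334 and 3964 CPM in SAN and 1.35, 6015 and 3971 CPM in RA. Ddx3y, a Y-linked helicase, was at 67.5, 0 and 0 CPM in SAN and 89.5, 0 and 0 CPM in RA. Replicate 1 of each tissue thus held Y-linked reads and almost no Xist, and replicates 2 and 3 the reverse. None of the 5 sex-linked genes was called by limma, edgeR or DESeq2.

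Of 18 immediate early and stress genes, 1 was called higher in SAN at E14.5, beside 2.24% of all genes tested. Egr1, an early response factor, was at 32.1, 44.6 and 30.8 CPM in SAN and 4.06, 13.1 and 13.6 CPM in RA (1.84 ± 0.47, adjusted p = 0.0198). The call was lost without SAN replicate 1 or 2 or RA replicate 1 (adjusted p up to 0.154).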
